A study of Homo sapiens with 6 samples.

Results

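Short exonic circular RNAs (circRNAs) were described in a line of human endometrial carcinoma cells, Ishikawa, with 3 libraries of MPA-treated and 3 of untreated control cells. The members are the circRNAs that the deposited table classes as exonic, lists with a circBase identifier and gives a predicted length of at most 300 bases. This rule used no read counts and found 624 of 4814 listed circRNAs, from 571 host genes. The labels did not spell out MPA and gave no dose, duration or culture history. They do not say whether the libraries of a group stem from separate cultures, and a p-value here reflects only how far these libraries vary, which may be technical.

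A circRNA forms when the spliceosome joins the donor site at the end of an exon back to the acceptor site of the same or an upstream exon. The closed circle has no free end, which protects it from exonucleases, and only the read that crosses the back-splice junction tells it from the linear RNA of the same gene. Long flanking introns with inverted repeats are known to bring the sites together. circBase is a public catalogue of circRNAs, and an identifier there says that the same junction had been listed from other samples.

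The sequences of 8 circles are shown because the results below turn on them. ASXL1 hsa_circ_0001136 and RNF138 hsa_circ_0005729 had the most reads. RAB3IP hsa_circ_0000419 was the one whose test result depended on a single library, XPO1 hsa_circ_0001016 shared a splice site with a much-read longer circle, and UXS1 hsa_circ_0001060 was read only in MPA libraries. UBAP2 hsa_circ_0001851 was the shortest circle with at least 10 reads, and ZNF124 hsa_circ_0017348 and ZNF730 hsa_circ_0008122 begin with the same kind of exon. The letters are those of the GENCODE 29 transcript (GRCh38) in which a run of whole exons of the host gene had the same strand, genomic span and spliced length as the table's circle; they were not read from these cells. Each runs 5′ to 3′ from the acceptor to the donor, and the capitals mark the first 10 and the last 10 bases, which meet at the back-splice. On GRCh38 the exons lie within chr20:32366384-32369123 (ASXL1, plus strand), chr18:32111754-32113860 (RNF138, plus strand), chr12:69800209-69801721 (RAB3IP, plus strand), chr2:61522611-61526521 (XPO1, minus strand), chr2:106158058-106166083 (UXS1, minus strand), chr9:33971651-33973237 (UBAP2, minus strand), chr1:247159006-247159813 (ZNF124, minus strand) and chr19:23134080-23136043 (ZNF730, plus strand).
ASXL1 hsa_circ_0001136: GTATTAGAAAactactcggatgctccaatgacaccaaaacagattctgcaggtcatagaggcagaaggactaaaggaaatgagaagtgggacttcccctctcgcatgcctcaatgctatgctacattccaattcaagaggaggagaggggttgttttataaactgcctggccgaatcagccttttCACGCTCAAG
RNF138 hsa_circ_0005729: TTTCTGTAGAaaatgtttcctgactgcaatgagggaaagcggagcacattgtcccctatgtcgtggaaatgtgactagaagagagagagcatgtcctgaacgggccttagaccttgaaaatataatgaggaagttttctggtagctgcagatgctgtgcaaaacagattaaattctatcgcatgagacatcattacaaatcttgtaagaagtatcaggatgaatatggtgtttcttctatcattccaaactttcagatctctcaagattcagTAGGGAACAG
RAB3IP hsa_circ_0000419: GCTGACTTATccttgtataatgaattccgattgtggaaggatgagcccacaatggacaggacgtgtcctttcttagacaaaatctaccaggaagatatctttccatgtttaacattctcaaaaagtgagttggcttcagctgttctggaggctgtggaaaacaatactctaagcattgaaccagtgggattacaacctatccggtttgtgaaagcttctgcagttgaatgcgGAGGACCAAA
XPO1 hsa_circ_0001016: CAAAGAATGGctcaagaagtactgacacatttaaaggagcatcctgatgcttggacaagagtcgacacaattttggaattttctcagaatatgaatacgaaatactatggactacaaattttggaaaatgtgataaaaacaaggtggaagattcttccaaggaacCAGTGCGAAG
UXS1 hsa_circ_0001060: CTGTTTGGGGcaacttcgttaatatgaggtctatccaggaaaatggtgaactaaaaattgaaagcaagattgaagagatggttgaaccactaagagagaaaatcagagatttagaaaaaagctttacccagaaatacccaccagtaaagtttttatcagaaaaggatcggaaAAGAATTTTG
UBAP2 hsa_circ_0001851: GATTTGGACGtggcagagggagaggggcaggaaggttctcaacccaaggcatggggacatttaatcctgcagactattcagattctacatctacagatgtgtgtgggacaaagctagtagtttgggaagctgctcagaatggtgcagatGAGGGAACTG
ZNF124 hsa_circ_0017348: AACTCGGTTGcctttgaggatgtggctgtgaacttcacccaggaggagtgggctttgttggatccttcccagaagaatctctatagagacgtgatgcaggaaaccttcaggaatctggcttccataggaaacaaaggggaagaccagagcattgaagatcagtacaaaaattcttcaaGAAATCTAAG
ZNF730 hsa_circ_0008122: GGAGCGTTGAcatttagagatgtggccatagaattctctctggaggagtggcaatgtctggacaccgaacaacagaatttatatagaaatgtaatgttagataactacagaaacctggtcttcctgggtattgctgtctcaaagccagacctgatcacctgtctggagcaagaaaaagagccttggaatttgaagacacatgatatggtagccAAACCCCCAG

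The 6 libraries held 26060 back-splice junction reads, which is the only depth the table gives. MPA libraries 1 to 3 held 4468, 4339 and 5454 reads, and control libraries 1 to 3 held 4316, 3740 and 3743. In the smallest library a circle with no read could still have had a share of up to 0.0802%, which is 3 counts. Such limits and the read-ratio intervals given later cover counting error only. A common change of every circRNA and a change of depth cannot be told apart. The endometrial epithelial marker genes CDH1, EPCAM and PAX8 each hosted a circRNA, that of EPCAM with 2 reads. Of 14 markers of stroma, endothelium and leukocytes, only FBN1 did, with 3 reads. None of these markers hosted a member, and the progesterone receptor gene PGR had no circRNA in the table, so circRNAs say little about the identity of these cells.

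The short circles took the same share of reads as of circRNAs. Their 3399 reads were 13.0% of all junction reads, and the 624 circles were 13.0% of those listed. MPA libraries 1 to 3 gave them 586, 542 and 746 reads, or 13.1, 12.5 and 13.7% of each library. Control libraries 1 to 3 gave 561, 506 and 458 reads, or 13.0, 13.5 and 12.2%. The share was therefore 13.1 ± 0.594% in MPA libraries against 12.9 ± 0.650% in control libraries (SD, n = 3 each), a difference of 0.174 percentage points that is smaller than either SD. The MPA libraries detected 252, 225 and 298 of the 624 circles, and the control libraries 251, 236 and 210. Thinned to the smallest library total, the numbers were 236 ± 22.8 with MPA against 228 ± 15.6 in controls, a difference of 7.64 in place of 26.

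Predicted lengths ran from 97 to 300 bases, with a median of 248 and quartiles of 216 and 278. Only 17 circles were 150 bases or shorter, and these averaged 3.41 reads over the 6 libraries. The 89 circles of 151 to 200 bases averaged 5.38 reads, the 221 of 201 to 250 bases 5.83 and the 297 of 251 to 300 bases 5.30. Reads were scarce: the median circle had 3 reads, 318 (51.0%) had 2 or 3, and 252 (40.4%) were read in a single library. Every circRNA in the table had at least 2 reads in some library, so 2 reads is the lowest total possible. The 2970 known exonic circRNAs over 300 bases averaged 6.34 reads, against 5.45 for the short ones, with the same median of 3. Of the short circles 28 (4.49%) were read in all 6 libraries, against 221 (7.44%) of the longer ones. The 10 most read short circles held 13.2% of the short circles' reads. These differences between length classes were not tested.

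**Figure D1:**
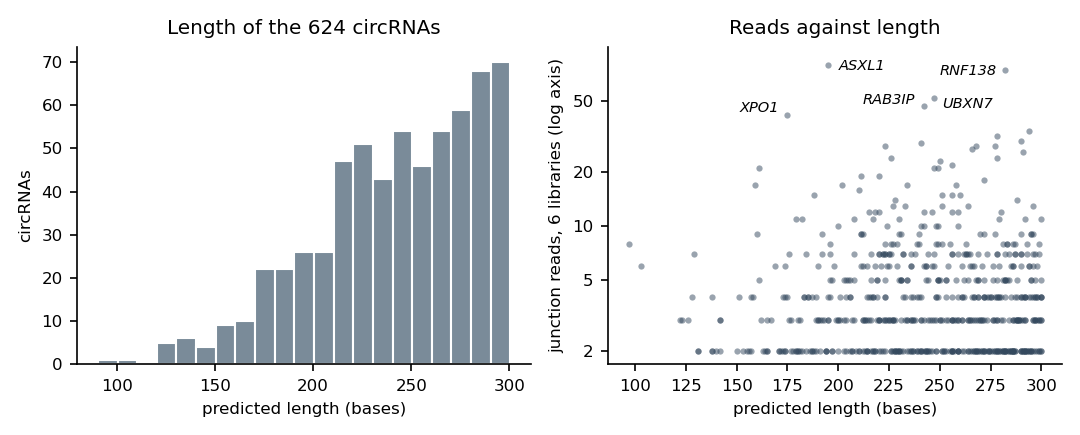
Left: number of short known exonic circRNAs by predicted length in 10-base steps. Right: junction reads summed over 6 libraries (log axis) against predicted length in bases, 1 point per circRNA. Most circles are over 200 bases long and have 2 or 3 reads, and the 5 named circles, from 42 to 79 reads, stand at 175 to 282 bases.

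At the limit of the rule, the 70 circles of 291 to 300 bases had a median of 4 reads and the 65 known exonic circRNAs of 301 to 310 bases a median of 3. The most read just inside were MEMO1 hsa_circ_0007385 (294 bases, 34 reads), UBE3A hsa_circ_0000586 (291 bases, 26 reads) and NPAS3 hsa_circ_0101677 (296 bases, 13 reads). Just outside stood XPO1 hsa_circ_0001017 (307 bases, 117 reads), UBAP2 hsa_circ_0001847 (309 bases, 56 reads) and ZNF236 hsa_circ_0004979 (308 bases, 33 reads).

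Most short circles were made of a pair of exons. An exon run of GENCODE 29 matched 609 of the 624 (97.6%), and 3 others had more than 1 possible run. Of the matched circles 39 held 1 exon, 409 (67.2%) held 2, 137 (22.5%) held 3, 22 held 4 and 2 held 5. The median was 2 exons, against 4 in the 2857 matched longer circles, as their lengths require. Exon 2 was the first exon in 167 short circles (27.4%) against 31.2% of longer ones, and exon 3 in 113 (18.6%) against 12.9%. Only DYRK1A hsa_circ_0001190, of a dual-specificity kinase, began with the first exon of its matched transcript, and no short circle ended with the last exon. That matched transcript is not the one the table names. The other DYRK1A circle, hsa_circ_0005955, begins with an exon of the same length, 86 bases, which is exon 3 of its matched transcript. Circles that began at exon 2 averaged 6.32 reads and those that began later averaged 5.18. By number of exons, the mean was 4.59 reads per circle for 1 exon, 5.44 for 2, 5.95 for 3, 5.64 for 4 and 4 for 5. None of these differences was tested.

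**Figure D2:**
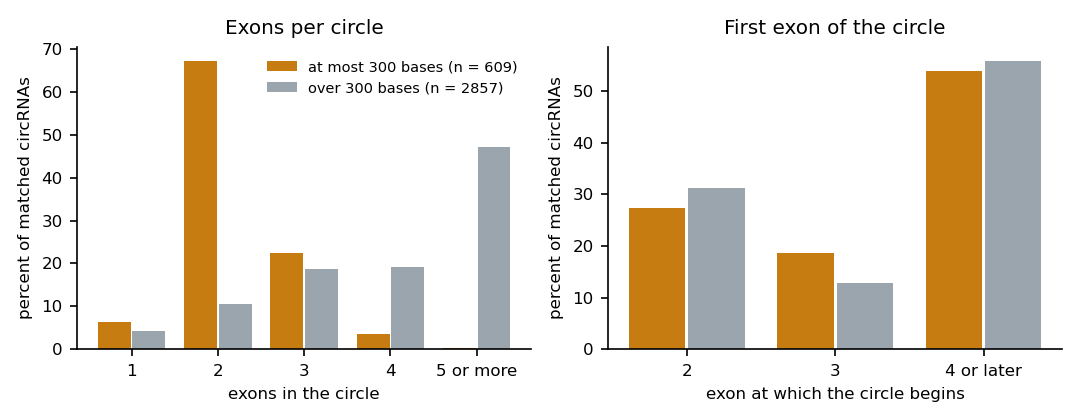
Percent of matched known exonic circRNAs by number of exons (left) and by the exon with which they begin (right), for circles of at most 300 bases and over 300 bases. The short circles peak at 2 exons (67.2%), and 27.4% of them begin with exon 2; the 1 short and 3 longer circles that begin with exon 1 are not drawn.

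The introns beside the short circles were long. The intron upstream had a median of 5904.5 bases and the one downstream 4879 bases. For the other introns, a median was taken within each circle's transcript, and the median of these values was 2189 bases. Both flanking introns were longer than the median of the other introns of their own transcript in 370 of 592 circles (62.5%), and both were shorter in 52 (8.78%). Longer circles had medians of 7301.5 and 6610.5 bases, with 2246.5 for the other introns taken in the same way. Among the members, NPAS3 hsa_circ_0101677 of a bHLH-PAS transcription factor stood between introns of 275815 and 151598 bases. Short introns did occur, as beside MITD1 hsa_circ_0001050, with 80 and 79 bases. The genomic distance from acceptor to donor had a median of 2290.5 bases on hg19, against 11837 bases for longer circles.

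Coding sequence filled 526 of the 609 matched circles (86.4%), 61 were partly coding and 22 had no coding base. Of the 526, 178 (33.8%) had a length that is a multiple of 3, so that the host's reading frame would continue across the junction. In 176 of these the frame held no stop codon, and the exceptions were circles of IQCK and PTK2. The open ones included ASXL1, RNF138, MEMO1, UBAP2 hsa_circ_0001851 and KDM1A. They had 962 reads, 5.47 per circle. An open frame is a property of the letters, and translation was not measured. The count of open frames was nearly fixed in advance. Coding sequence read in the host's frame can meet a stop only at the codon rebuilt across the junction. In longer circles 863 of 867 such frames were open. The median GC content was 43.9% in short circles and 42.8% in longer ones.

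The question of the comparison between groups was which circRNAs differ with MPA. Of 91 circRNAs that averaged 5 reads or more per library, 0% passed a false discovery rate of 0.05 in edgeR's quasi-likelihood test, and 8 of the 91 were short known exonic circles. None of the 8 passed, and none had an unadjusted p under 0.05, against 2 over all 91; DESeq2 also called 0, with no member and 1 of all 91 under that p. The estimate was above 0 for 6 of the 8, a count that was not made over all 91. Their median log2 fold change of MPA over control was 0.31, beside 0.14 over all 91. With a mean of at least 2 reads this lean was gone. There 25 of 48 short circles were above 0, and their median was 0.048 beside 0.067 over all 382.

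ASXL1 encodes a subunit of the Polycomb-associated BAP1 complex, which removes ubiquitin from histone H2A. Its circle hsa_circ_0001136, 195 bases from exons 2 to 4 (chr20:30954187-30956926 on hg19, plus strand), was the most read short circle. It had 19, 12 and 20 reads in MPA libraries, against 11, 7 and 10 in control libraries. Every MPA library was above every control library in reads and in share of junction reads. By share alone this was so for 14 of the 382 circRNAs (3.66%) that averaged 2 reads or more. The log2 fold change was 0.63 (SE 0.432, n = 3 each) and did not pass (edgeR adjusted p = 0.936), with a 95% interval from -0.22 to 1.48.

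RNF138 encodes a RING-type ubiquitin ligase that takes part in the repair of DNA double-strand breaks. Its 282-base circle hsa_circ_0005729 (chr18:29691717-29693823 on hg19, plus strand) had 13, 16 and 15 reads in MPA libraries, against 6, 9 and 15 in control libraries. The highest control library lay within the MPA range, and the log2 fold change of 0.33 (SE 0.431) did not pass (edgeR adjusted p = 0.936). UBXN7, an adaptor that links ubiquitinated proteins to the segregase p97, gave rise to hsa_circ_0001380 of 247 bases (chr3:196118684-196129890 on hg19, minus strand). It had 13, 7 and 8 reads with MPA against 4, 12 and 8 in controls, and its log2 fold change was -0.00 (SE 0.436, edgeR adjusted p = 0.995). The groups overlapped, and the 95% interval, from -0.86 to 0.85, leaves room for a change in either direction.

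RAB3IP encodes Rabin8, an exchange factor that activates the vesicle GTPase RAB8. Its 242-base circle hsa_circ_0000419 (chr12:70193989-70195501 on hg19, plus strand) had 16, 9 and 7 reads in MPA libraries, against 1, 14 and 0 in control libraries. A single control library held 14 of the 15 control reads. The log2 fold change was 0.85 (SE 1.24, edgeR adjusted p = 0.936). Without control library 2 it was 3.96 and passed the threshold (edgeR adjusted p = 0.0319), as the only 1 of the 101 circRNAs tested there. Without any other library it ran from 0.25 to 1.09 and did not pass.

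XPO1 encodes the receptor that exports proteins with a leucine-rich signal from the nucleus. Its 175-base circle hsa_circ_0001016 (chr2:61749746-61753656 on hg19, minus strand) had 3, 15 and 8 reads with MPA against 9, 4 and 3 in controls, and its log2 fold change was 0.45 (SE 0.526, edgeR adjusted p = 0.936). MPA library 2 gave 15 of its 26 MPA reads, and without that library the log2 fold change was -0.26. FANCL, the ubiquitin ligase of the Fanconi anaemia core complex, gave hsa_circ_0001009 of 278 bases (chr2:58449077-58459247 on hg19, minus strand), with 6, 2 and 11 reads with MPA against 8, 0 and 5 in controls. MEMO1, known for its part in ErbB2-driven cell motility, gave hsa_circ_0007385 of 294 bases (chr2:32142995-32157204 on hg19, minus strand), with 10, 5 and 5 against 1, 7 and 6 reads. ZDBF2, an imprinted zinc finger gene, gave hsa_circ_0002141 of 290 bases (chr2:207144264-207162097 on hg19, plus strand), with 2, 5 and 8 reads with MPA against 5, 6 and 4 in controls. The groups overlapped in all 4. The log2 fold changes were 0.30 for FANCL (SE 0.669), 0.29 for MEMO1 (SE 0.653) and -0.24 for ZDBF2 (SE 0.650), and none passed (edgeR adjusted p = 0.936 for each).

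**Figure D3:**
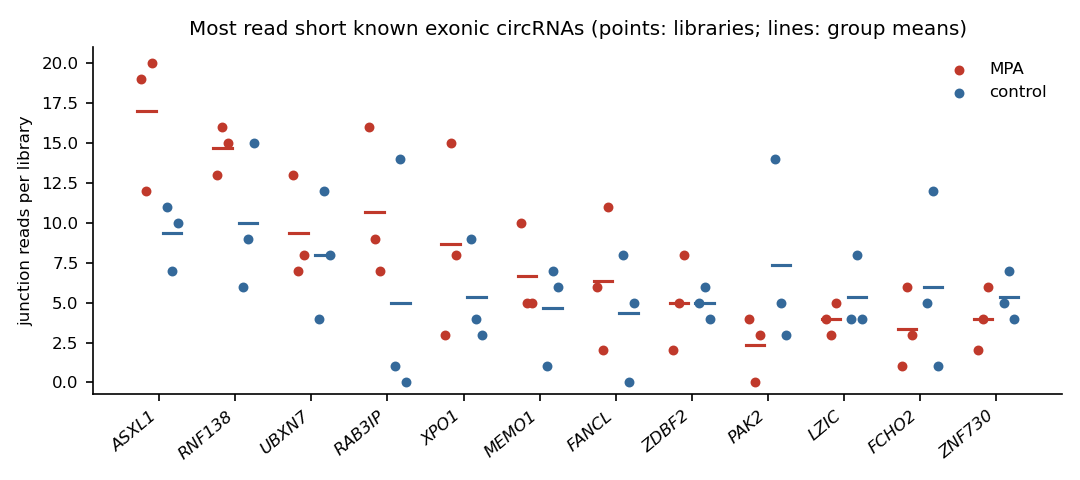
Junction reads per library (vertical axis) of the 12 most read short known exonic circRNAs, named by host gene; points are libraries, lines are group means, MPA left of control. ASXL1 is the only one of the 12 with every MPA point above every control point.

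**Figure D4:**
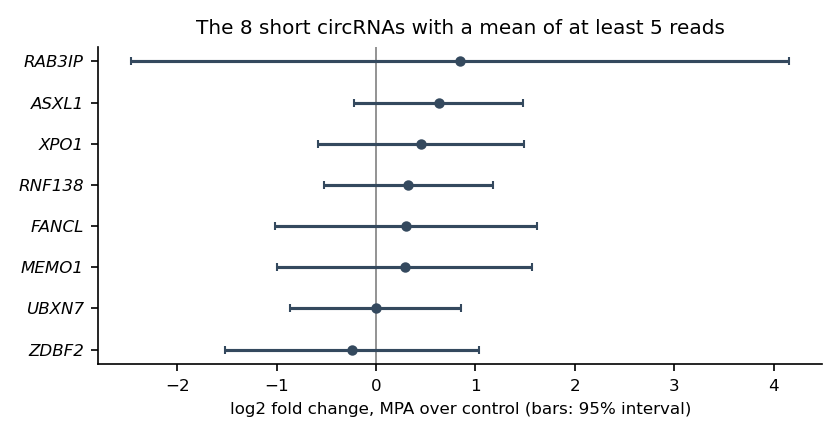
Log2 fold change of MPA over control for the 8 short circles with a mean of at least 5 reads; points are edgeR estimates and bars their 95% intervals. Every interval includes 0, and that of RAB3IP is the widest, from -2.46 to 4.16.

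Below the limit of 5 reads, a test with a mean of at least 2 reads took in 48 short circles among 382 circRNAs and again called 0. At an unadjusted p under 0.05 there were 12 of the 382 (3.14%), and 2 of them were short circles. PAK2 hsa_circ_0003036, of a p21-activated kinase, had 4, 0 and 3 reads with MPA against 14, 5 and 3 in controls, a log2 fold change of -1.75 (SE 0.726, unadjusted p = 0.0161, edgeR adjusted p = 0.994). Control library 1 held 14 of its 29 reads, and the groups overlapped. MITD1 hsa_circ_0001050, of a protein that works with ESCRT-III at the end of cell division, had 9, 1 and 2 reads with MPA against 0, 0 and 1 in controls. Its log2 fold change was 3.05 (SE 1.36, unadjusted p = 0.0254, edgeR adjusted p = 0.994), and 9 of its 12 MPA reads came from library 1.

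Complete separation of the groups was rare. By share of junction reads, every MPA library was above every control library for 10 of 624 short circles (1.60%), against 1.16% of all 4814. Every MPA library was below every control library for 19 (3.04%), against 1.99%. Among the 48 with a mean of at least 2 reads, 2 were above (3.66% over all 382) and 4 below (4.97% over all 382). The 2 above were ASXL1 and ZNF124. The 4 below were LZIC hsa_circ_0000014, DAP3 hsa_circ_0014614, PAN3 hsa_circ_0004372 and KMT2E hsa_circ_0007395. LZIC had 4, 3 and 5 reads with MPA against 4, 8 and 4 in controls. DAP3, of a mitochondrial ribosomal protein, had 2, 2 and 1 against 2, 8 and 2. The 4 lower separations exist only after division by the library totals, since the read counts of the groups overlap for LZIC and meet at 2 reads for DAP3, PAN3 and KMT2E.

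Host genes were grouped into 11 lists, named from known functions. The short circles of 1 list, the genes named ZNF with a number, did not overlap between groups in their share of reads. With 3 libraries against 3, random labels separate the groups completely, in either direction, with a probability of 0.1. The 1 list among 11 is near that rate. This list of zinc finger genes held 16 circles of 16 hosts, with 80 reads in MPA libraries against 39 in control libraries. Their share was 0.566 ± 0.065% with MPA against 0.332 ± 0.0599% in controls (SD, n = 3 each), with ranges of 0.495 to 0.622% and 0.294 to 0.401%. No test was made on this sum. By share of reads, 14 of the 16 were higher with MPA, while 331 of all 624 short circles (53.0%) were. The other 76 circRNAs of numbered ZNF hosts were higher in 43 cases (56.6%), with 2.56 ± 0.297% of reads with MPA against 2.40 ± 0.487% in controls. Of the 16 short ones, 6 were read in a single library, and each of those was an MPA library. These 6 are in the table because that library had at least 2 of their reads, so the listing itself fixed their direction. The shares, the 80 reads and the 14 of 16 given above include these 6, and no share without them was computed.

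The 3 most read ZNF circles had 37 reads with MPA against 28 in controls, and the other 13 circles had 43 against 11. These 13 include the 6 that were read only in a single MPA library. ZNF730 hsa_circ_0008122 (chr19:23316882-23318845 on hg19, plus strand), the most read, had 2, 4 and 6 reads with MPA against 5, 7 and 4 in controls. ZNF608 hsa_circ_0001523, a single exon of 256 bases (chr5:124036707-124036962 on hg19, minus strand), had 9, 0 and 4 reads with MPA against 4, 3 and 2 in controls. ZNF124 hsa_circ_0017348 (chr1:247322308-247323115 on hg19, minus strand) had 4, 3 and 5 reads with MPA against 1, 0 and 2 in controls. ZNF124 alone of these 3 had all MPA libraries above all control libraries, and its log2 fold change of 1.71 (SE 1.09) did not pass with a mean of at least 2 reads (edgeR adjusted p = 0.994). ZNF268 hsa_circ_0029596 had 0, 6 and 0 reads with MPA against 0, 1 and 0 in controls. ZNF766 hsa_circ_0052095 had 0, 0 and 5 against 2, 0 and 0. The last 2 were named after their values were seen, as examples of circles read mainly in 1 library.

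These zinc finger circles also had a structure in common. Many zinc finger proteins carry a KRAB domain, which recruits the corepressor TRIM28, and its A box is usually encoded by an exon of its own. The exon length found in most of them, 127 bases, was looked up after this was seen. An exon of that length was part of 10 of the 16 ZNF circles (62.5%) and of 9 of the 593 other matched short circles (1.52%). In the ZNF124 circle this exon is joined to one of 61 bases, and in the ZNF730 circle to one of 96 bases, as printed above. Numbered ZNF genes cluster on chromosome 19, which held 31 of the 624 short circles (4.97%) and 1.65% of the longer known exonic ones. How many of these 31 had a numbered ZNF host was not counted, and the reason for the difference was not tested.

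**Figure D5:**
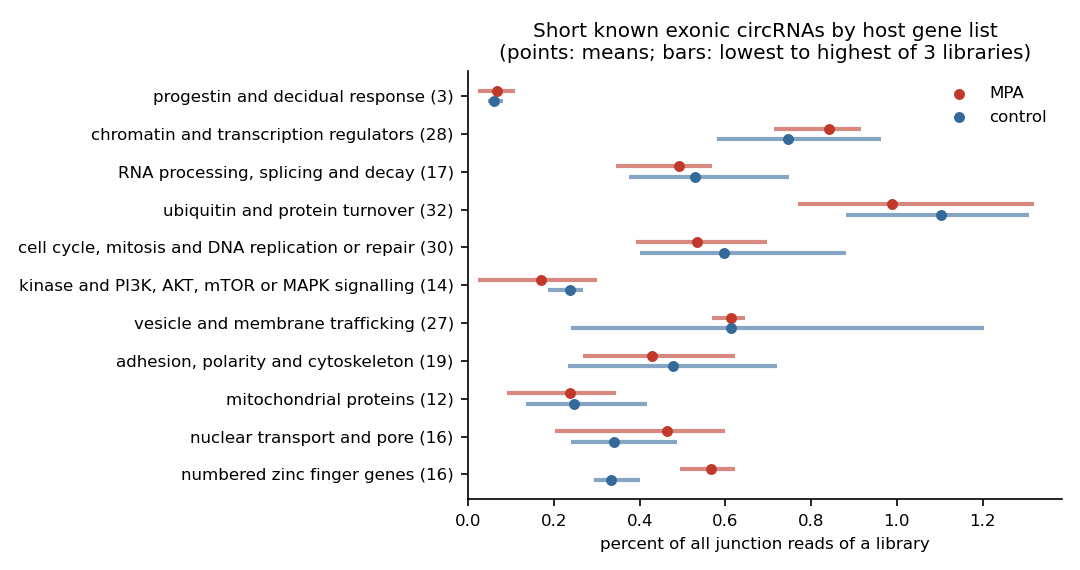
Share of each library's junction reads (percent, horizontal axis) taken by the short circles of 11 host gene lists, with the number of circles in brackets; points are means of 3 libraries and bars run from the lowest to the highest, MPA above control. The bars of the groups overlap in 10 lists, and those of the numbered zinc finger genes do not. The 16 circles of that list include 6 that were listed only through an MPA library.

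In each of the other 10 lists the groups overlapped in their share of reads. The 28 circles of chromatin and transcription regulators took 0.842 ± 0.111% of reads with MPA against 0.745 ± 0.197% in controls (SD, n = 3 each), and 15 of the 28 were higher with MPA. Besides ASXL1 they included KMT2E hsa_circ_0007395, of a SET-domain protein, with 2, 0 and 1 reads with MPA against 5, 2 and 2 in controls. BRWD1 hsa_circ_0001195, of a bromodomain protein, had 3, 3 and 1 against 0, 1 and 3. Neither passed a test.

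The 17 circles of RNA processing genes took 0.491 ± 0.126% with MPA against 0.529 ± 0.195% in controls, and 8 of the 17 were higher with MPA. CNOT2 hsa_circ_0007127, of the CCR4-NOT deadenylase complex, had 3, 2 and 12 reads with MPA against 5, 1 and 4 in controls. PAN3 hsa_circ_0004372, of the PAN2-PAN3 deadenylase, had 2, 2 and 1 against 4, 2 and 4. SRSF4 hsa_circ_0006602, a single exon of a serine and arginine rich splicing factor, had 0, 5 and 2 against 3, 2 and 0. A single MPA library thus set the CNOT2 mean. In read counts the groups of all 3 met or overlapped, while by share of reads PAN3 was lower in every MPA library, as given above.

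Ubiquitin and protein turnover was the list with the most short circles, 32, which took 0.989 ± 0.292% with MPA against 1.10 ± 0.215% in controls. With 15 of 32 higher with MPA, the list was near the 53.0% of all short circles. UBE3A hsa_circ_0000586, of a ubiquitin ligase expressed from the maternal allele in neurons, had 5, 5 and 3 reads with MPA and the same 5, 5 and 3 in controls. The 30 circles of cell cycle and DNA repair genes took 0.534 ± 0.153% with MPA against 0.596 ± 0.252% in controls, and 14 were higher with MPA. ORC4 hsa_circ_0001074, of the origin recognition complex, had 2, 2 and 2 reads with MPA against 3, 1 and 2 in controls. PDS5B hsa_circ_0004494, of a cohesin regulator, had 2, 0 and 1 against 1, 0 and 4.

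Kinase and PI3K, AKT, mTOR or MAPK signalling genes had 14 short circles, with 0.168 ± 0.139% with MPA against 0.236 ± 0.0432% in controls and 6 of 14 higher with MPA. The most read were PIK3R3 hsa_circ_0003161, of a PI3-kinase regulatory subunit, MAP4K3 hsa_circ_0054211, of a kinase upstream of JNK signalling, and SOS2 hsa_circ_0007695, of a Ras exchange factor, with 7, 7 and 5 reads in all. Vesicle and membrane trafficking genes had 27, with 0.613 ± 0.0401% against 0.613 ± 0.517% and 14 of 27 higher. The wide control spread came with RAB3IP and with FCHO2 hsa_circ_0002490, of a protein that starts clathrin-coated pits, which had 1, 6 and 3 reads with MPA against 5, 12 and 1 in controls. In both circles control library 2 was the highest control.

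Adhesion, polarity and cytoskeleton genes had 19 short circles, with 0.428 ± 0.180% with MPA against 0.478 ± 0.245% in controls and 8 of 19 higher with MPA. DLG1 hsa_circ_0001383, of a polarity scaffold, had 2, 8 and 5 reads with MPA against 2, 3 and 4 in controls. CORO1C hsa_circ_0000437, of an actin-binding coronin, had 2, 1 and 4 against 2, 1 and 5, and UTRN hsa_circ_0001647, of utrophin, 0, 1 and 2 against 0, 1 and 4. Mitochondrial proteins had 12, with 0.237 ± 0.132% against 0.246 ± 0.151% and 6 of 12 higher. NDUFA10 hsa_circ_0001118, of respiratory complex I, led them with 2, 8 and 2 reads with MPA against 6, 1 and 4 in controls. MCCC1 hsa_circ_0008550, of a leucine-degrading carboxylase, had 0, 2 and 3 against 2, 1 and 1, and ETFA hsa_circ_0000639, of an electron transfer flavoprotein, 0, 1 and 2 against 2, 2 and 0.

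Nuclear transport and pore genes had 16 short circles, with 0.462 ± 0.226% with MPA against 0.340 ± 0.129% in controls and 10 of 16 higher with MPA. After XPO1 came the import receptors TNPO1 hsa_circ_0002692, with 0, 0 and 5 reads with MPA against 3, 0 and 2 in controls, and IPO11 hsa_circ_0007915, with 0, 3 and 4 against 1, 0 and 1. The list of progestin and decidual response genes held only 3 short circles, with 0.0667 ± 0.0435% with MPA against 0.0600 ± 0.0179% in controls. They came from the steroid receptor coactivator genes NCOA1 and NCOA2. NCOA1 hsa_circ_0005968 had 0, 1 and 4 reads with MPA against 0, 1 and 0 in controls. NCOA2 hsa_circ_0137069 had 2, 0 and 2 against 2, 1 and 0, and NCOA2 hsa_circ_0001810 had 1, 0 and 0 against 0, 1 and 2. At 1 to 5 reads per group, no difference was detectable for these circles.

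Most hosts, 527 of 571, had 1 short circle, 37 had 2, 5 had 3 and 2 had 4. In 303 hosts (53.1%) the table also listed other circRNAs, and the short circles held 41.0% of the reads of their hosts. The hosts with 4 were BRWD1 and SMARCC1, a core subunit of the BAF remodelling complex. The 4 BRWD1 circles had 3, 5 and 3 reads in sum with MPA against 1, 4 and 3 in controls, and the 4 of SMARCC1 had 1, 3 and 2 against 0, 3 and 2. The SMARCC1 circles hsa_circ_0065298 and hsa_circ_0065299 end at the same donor, and the second adds 1 upstream exon of 93 bases to the pair of 70 bases each. INO80, the catalytic subunit of a nucleosome remodeller, had 3 circles with 3, 1 and 5 reads against 1, 3 and 1. SNX5, a sorting nexin, had 3 with 2, 3 and 2 against 2, 2 and 1. UBAP2, a ubiquitin-binding protein gene, had 3 with 3, 2 and 1 reads with MPA against 5, 6 and 4 in controls, while its more read circle just over the length limit, hsa_circ_0001847, had 6, 12 and 17 against 8, 6 and 7. UBE2K and EZH2 also had 3 each, with 11 and 9 reads.

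A back-splice site was shared with another listed circRNA in 194 short circles (31.1%), against 1527 of the longer ones (51.4%). The acceptor was shared in 122 and the donor in 94. Counted from each short circle these formed 291 pairs, so short circles that share a site with each other are counted from both sides. The partner was longer in 277. The short circle had more reads than its partner in 141 pairs, fewer in 112 and the same in 38. In the 5 pairs with the most reads, the short circle's part of the reads of both was compared between groups by a two-sided exact permutation test, whose smallest p with 3 libraries against 3 is 0.1.

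XPO1 led these pairs, with 42 reads for hsa_circ_0001016 and 117 for hsa_circ_0001017, a 307-base circle with the same donor. The longer one had 15, 25 and 16 reads in MPA libraries, against 25, 18 and 18 in control libraries. The short circle made up 29.2 ± 11.02% of both with MPA against 19.6 ± 6.22% in controls (SD, n = 3 each; exact permutation p = 0.3, adjusted over the 5 pairs 0.75). ZNF124 hsa_circ_0017348 shared its acceptor with hsa_circ_0112879, a sense-overlapping circRNA of 3408 bases with 95 reads. There the short part was 17.6 ± 1.06% with MPA against 6.48 ± 5.78% in controls, with no overlap of the groups (exact permutation p = 0.1, the smallest possible, adjusted 0.5). RNF138 hsa_circ_0005729 outnumbered its 451-base partner hsa_circ_0047378 by 74 reads to 4, and made up 96.1 ± 6.79% with MPA against 91.7 ± 14.4% in controls (exact permutation p = 1). DLG1 hsa_circ_0001383 had 24 reads beside 73 of hsa_circ_0008500, with a part of 28.7 ± 11.6% with MPA against 20.6 ± 8.46% in controls (exact permutation p = 0.6). MIB1 hsa_circ_0008190, of a ubiquitin ligase in Notch signalling, had 2 reads beside 67 of hsa_circ_0000835, both in MPA library 1 (exact permutation p = 1). No pair could reach 0.05 in this design.

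Circles read in one group only were mostly circles with 2 or 3 reads. Of the 624 short circles 182 (29.2%) had reads in MPA libraries only, against 32.7% of all listed circRNAs, and 138 (22.1%) in control libraries only, against 25.2%. The most read of those with at most 1 read in a group were MITD1, UXS1, UGGT1, TMEM138 and PNN. UXS1 hsa_circ_0001060, of an enzyme that makes UDP-xylose, had 6, 2 and 3 reads with MPA against 0, 0 and 0 in controls. Its share of the group's reads was 3.03-fold higher with MPA, with the control group set to 3 counts over its 3 libraries. That value is not a lower bound, as it leaves out the counting error of the 11 MPA reads. The exact 95% interval of the ratio begins at 2.08. UGGT1 hsa_circ_0008298, of a folding sensor of the endoplasmic reticulum, had 4, 2 and 4 reads with MPA against 0, 1 and 0 in controls, a ratio of shares of 8.27 (exact 95% interval 1.18 to 359). TMEM138 hsa_circ_0002058, of a ciliary membrane protein, had 0, 4 and 5 against 1, 0 and 0, a ratio of 7.45 (1.03 to 326). The ratio for MITD1 was 9.93 (1.47 to 424). PNN hsa_circ_0101802, of the splicing-associated protein pinin, had 0, 0 and 0 reads with MPA against 2, 2 and 5 in controls. Its share was 3.63-fold lower with MPA, with the MPA group set to 3 counts over its 3 libraries. That value leaves out the counting error of the control reads, and the exact 95% interval of the ratio ends at 0.419. These 5 were chosen for their difference, so the ratios are a description, and the intervals leave out the spread between libraries.

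At the ends of the length range, 63 short circles had at least 10 reads. The shortest of them was UBAP2 hsa_circ_0001851 of 159 bases (chr9:33971649-33973235 on hg19, minus strand), with 3, 2 and 1 reads with MPA against 5, 4 and 2 in controls. Next were MATR3 hsa_circ_0008922 of 161 bases, of the nuclear matrix protein matrin-3, with 4, 1 and 2 against 5, 3 and 6, and XPO1 hsa_circ_0001016 of 175 bases. The longest were KDM1A hsa_circ_0009061 of 300 bases, of the histone demethylase LSD1, with 1, 2 and 5 against 0, 2 and 1 reads, NPAS3 hsa_circ_0101677 of 296 bases, with 4, 0 and 3 against 0, 2 and 4, and MEMO1 hsa_circ_0007385. The groups met or overlapped in each of these.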

How the data were processed

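Per the labels, 6 RNA libraries of Ishikawa cells (3 MPA, 3 control) were sequenced for circRNAs. The deposited table gives unnormalized whole-number counts, which are back-splice junction reads per the file headers; predicted lengths, classes, hosts and circBase identifiers are other deposited columns of the authors. CASAVA 1.8, BWA and hg19 are named, without their roles, in the submitters' processing notes; no circRNA caller is named there. Another 6 per-library columns were not used. Library totals of 3740 to 5454 junction reads limit precision. Reads of hosts with near-identical copies (GTF2I, GTF2IRD2, RGPD5, TPTE, GPR89A, TYW1B) are of uncertain origin; none is named with values.

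The main test on counts was that of edgeR 4.0.16 under R 4.3.3 (TMM on junction-read totals, group term, robust quasi-likelihood fit, mean of at least 5 reads, Benjamini-Hochberg adjustment over all 91 circRNAs, FDR 0.05). Standard errors come from the log2 fold change and F. DESeq2 1.42.0, 2 other filters, 2 other scalings, a replicate block and leaving out each library were alternatives. Pair shares were tested by exact permutation; share ratios have exact binomial 95% intervals. Exon runs came from GENCODE 29 by strand, span and spliced length, without converting coordinates. Python 3.11.15, pandas 2.3.3, numpy 2.4.6, scipy 1.17.1 and matplotlib 3.10.9 did the rest.

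The members and host lists were chosen with earlier results of these data known. Named were the 10 members with the highest mean reads (12 with ties), all tested members, up to 3 per list, the 5 hosts with the most members, the 3 shortest and 3 longest with at least 10 reads, the 5 most read pairs sharing a site, the 5 untested members with the most reads in 1 group and at most 1 in the other, and the 3 most read on each side of the length limit. Hosts with 3 members were tied, so 7 hosts are given. IQCK, PTK2, DYRK1A, DAP3, ZNF268 and ZNF766 were named after their values were seen.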

Additional observations from a re-analysis of the deposited data

How the results depend on the processing

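No short circle was called under any scaling, filter or test other than leaving out a library, where the number called ran from 0 to 1. The 1 was RAB3IP hsa_circ_0000419 without control library 2 (log2 fold change 3.96, edgeR adjusted p = 0.0319). In that fit 1 of 8 short circles was called, and 1 of all 101 circRNAs tested. Of 91 alternative log2 fold changes of the 8 tested circles, 80 kept their direction and call and 10, of 5 circles, changed sign. UBXN7, at -0.00, was 0.069 with no filter and 0.055 with a mean of at least 2 reads. Leaving out each library in turn gave -0.43 to 0.45 for UBXN7, -0.41 to 0.028 for ZDBF2, -0.26 to 1.08 for XPO1, -0.16 to 0.74 for MEMO1, -0.24 to 0.65 for FANCL, 0.25 to 3.96 for RAB3IP, 0.43 to 0.79 for ASXL1 and 0.09 to 0.69 for RNF138. There is no value where a circle fell under the mean of 5 reads, which was so for ZDBF2 without MPA library 3 or control library 2, for FANCL without MPA library 3 or control library 1, and for MEMO1 without MPA library 1. The cause was not tested.

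The share of junction reads taken by short circles differed between MPA and control libraries by 0.0271 to 0.295 percentage points under other length limits, without the circBase requirement or as a share of known exonic reads, and by -0.169 to 0.478 with a library left out, so its sign was not settled. The difference in circles detected per library ran from 6.17 to 42.7 with a library left out.

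Libraries of the 2 groups share replicate numbers. Deviations of same-numbered libraries from their group means correlated at -0.0779, 0.145 and 0.322 over the 91 tested circRNAs. Those of different-numbered libraries correlated at -0.273 to 0.106, so 0.145 and 0.322 were above all of them and -0.0779 was not. These values do not settle whether the numbers pair the libraries. The labels state no pairing, and the main test did not use the numbers. With the replicate number as a block, 0 short circles passed (smallest edgeR adjusted p = 0.892) and the UBXN7 log2 fold change was 0.0052.

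At 3740 to 5454 junction reads, a circle with 3 reads in all cannot show a difference between groups, and 0 of 4814 circRNAs passed when all were tested.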
